A study of Mus musculus with 4 samples.

Results

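The 9 genes described here encode the chloride cotransporters Slc12a2 (NKCC1), Slc12a4 (KCC1), Slc12a5 (KCC2) and Slc12a7 (KCC4), the kinases Wnk1, Wnk2 and Wnk3, and the kinases Stk39 (SPAK) and Oxsr1 (OSR1). They were taken by symbol from the 18854 genes of the deposited expression table, and all 9 were found. The libraries came from wild-type mouse cortical neurons that had been 15 days in culture. In 2 libraries the neurons had been given a p53 activator, Nutlin-3, for 2 days, and in 2 libraries they had received DMSO, the solvent. Nutlin-3 is a small molecule that keeps Mdm2 from binding p53 and so from marking it for degradation. The treatment label of the DMSO libraries reads as untreated, and the length of their exposure to DMSO is not given in the sources used here. Whether replicate libraries came from separate cultures is not stated in the labels, and p-values therefore reflect the spread between these 4 libraries, which may be technical.

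The direction of the current through GABA-A receptors depends on how much chloride a neuron holds. NKCC1 brings chloride into the cell together with sodium and potassium, and KCC2, which is found almost only in neurons, carries chloride out together with potassium. As cortical neurons mature, KCC2 becomes abundant, chloride falls and GABA changes from exciting to inhibiting. WNK kinases respond to low chloride and to cell shrinkage by activating SPAK and OSR1, which switch NKCC1 on and the KCC exporters off by phosphorylation. Messenger RNA levels do not show that phosphorylation.

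Of the 9 genes, only Slc12a5, the neuronal exporter, passed the test, and it was 1.32-fold higher with the p53 activator. The importer Slc12a2, the exporters Slc12a4 and Slc12a7 and the 5 kinases had no call on the deposited scale. A call is an adjusted p under 0.05 in limma's moderated test on log2(CPM + 1), two-sided and adjusted by Benjamini-Hochberg over 16654 tested genes. CPM is the number of reads of a gene, scaled so that every library has the same total. A gene with no call is not shown to be unchanged, and its interval, where given, shows the sizes the data allow. The 1 gene called higher and the 0 called lower among 9 stand beside 16.9% of all tested genes called higher and 16.3% called lower, and beside 21.2% and 7.19% of the 12763 nuclear protein-coding genes. Slc12a5 was also the 1 gene with an unadjusted p under 0.05 in limma, and edgeR and DESeq2 also called 1 of the 9 higher and 0 lower. The libraries of the groups were apart, with no overlap, for 5 of the 9 genes, beside 67.6% of all tested genes. The median log2 fold change was 0.06 over the 9 genes, 0.03 over all tested genes and 0.09 over the protein-coding ones.

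**Figure D1:**
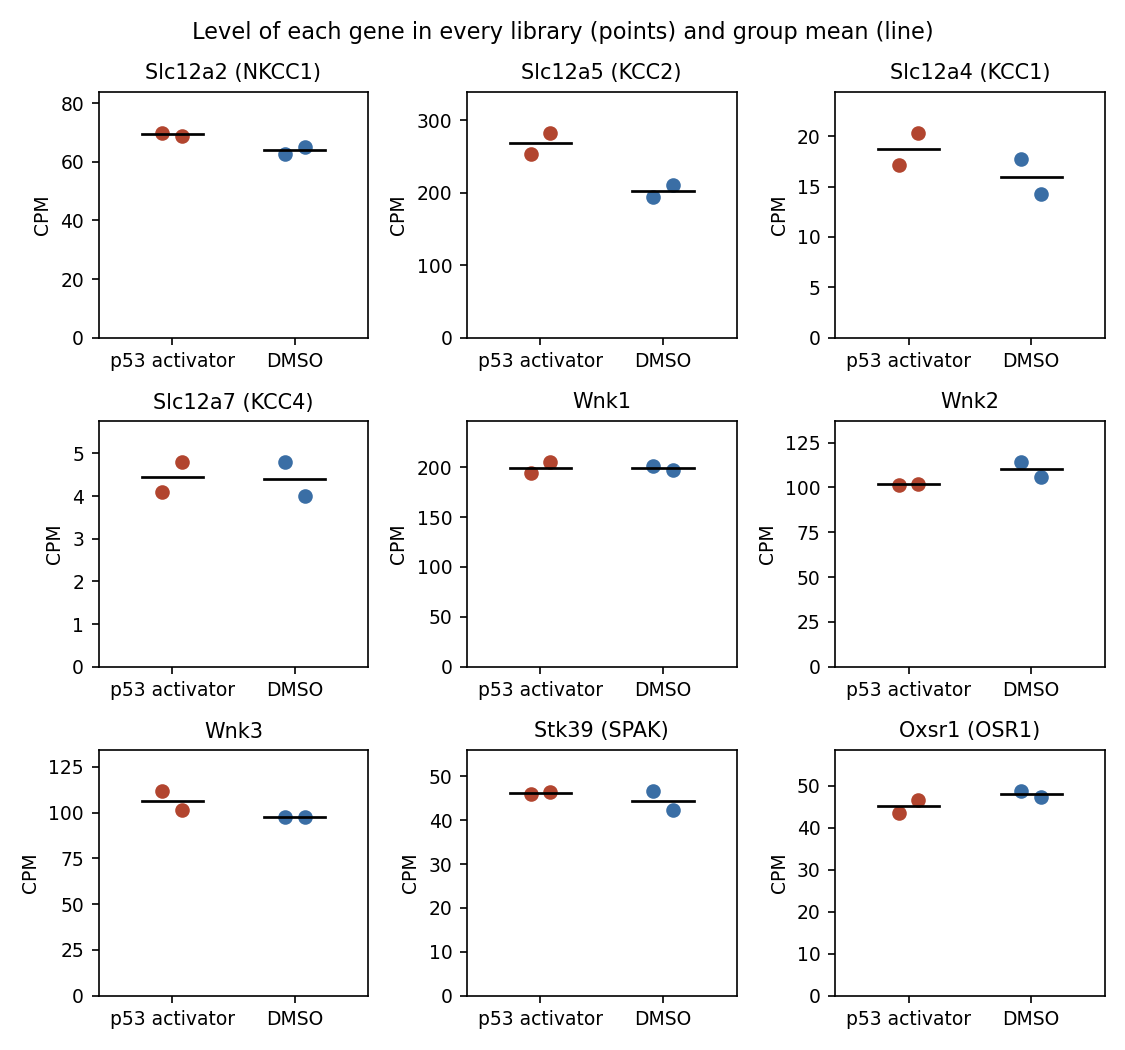
CPM of each of the 9 genes in every library (y axis, from 0), with p53 activator libraries on the left of each panel and DMSO libraries on the right. Points are libraries and lines are means of 2. For Slc12a5 both activator libraries (254 and 283 CPM) lie above both DMSO libraries (195 and 211 CPM), while the points of Slc12a4, Slc12a7, Wnk1 and Stk39 overlap.

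The libraries differed in make-up. They held 19065197 and 17716272 counted reads with the p53 activator, against 14584247 and 14968028 in DMSO. Of the reads on listed genes, 83.2% and 82.7% fell on nuclear protein-coding genes in the activator libraries, against 73.6% and 75.9% in the DMSO libraries. Genes of the mitochondrial chromosome took 3.45% and 3.83% of the same reads in the activator libraries, against 6.66% and 6.28% in the DMSO libraries, and the part of that difference in the rise of Slc12a5 was not tested. CPM shares out a fixed total, so a protein-coding gene that keeps its place among protein-coding genes has a higher CPM with the activator. For that reason each gene is also given on a protein-coding scale, where these genes alone share the fixed total. This moved their log2 fold changes by a median of -0.15. On the protein-coding scale 4.37% of 13040 genes were called higher and 13.1% lower. With edgeR, which scaled whole reads by trimmed means (TMM), the shares were 10.6% higher and 16.1% lower of 17710 genes. Rises made up 50.8% of all calls on the deposited scale, 25.03% on the protein-coding scale and 39.6% in edgeR.

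Slc12a5 encodes KCC2, the exporter that keeps chloride low in mature neurons. It had 254 and 283 CPM in the p53 activator libraries, against 195 and 211 CPM in the DMSO libraries. These values rest on 4840 and 5007 reads with the activator and on 2837 and 3159 reads in DMSO. Both activator libraries lay above both DMSO libraries, and the gap between the groups was wider than either gap within a group. The mean was 268 ± 20.3 CPM with the activator and 203 ± 11.7 CPM in DMSO (SD, n = 2 each). The log2 fold change was 0.40 ± 0.08 (SE), with a limma adjusted p of 2.56e-05 and a 95% interval from 0.25 to 0.56. Slc12a5 also rose in edgeR on whole reads (0.37, adjusted p = 0.00482) and on the protein-coding scale (0.25, limma adjusted p = 0.00564). The call was lost in limma without a trend of the spread with expression (adjusted p = 0.0581). Of the 12763 protein-coding genes tested, 449, or 3.52%, had a higher log2 fold change.

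RefSeq gives Slc12a5 a pair of transcription starts, 7142 bases apart, and the deposited table holds 1 value for both, so the rise could not be divided between them. The 250 bases before each start are shown because Slc12a5 was the gene of the set that rose. They lie on the plus strand of build GRCm38.p6, at chr2:164960596-164960845 and chr2:164967738-164967987, and capitals mark the E-box CACGTG, a motif that upstream stimulatory factors bind.
Slc12a5 upstream start: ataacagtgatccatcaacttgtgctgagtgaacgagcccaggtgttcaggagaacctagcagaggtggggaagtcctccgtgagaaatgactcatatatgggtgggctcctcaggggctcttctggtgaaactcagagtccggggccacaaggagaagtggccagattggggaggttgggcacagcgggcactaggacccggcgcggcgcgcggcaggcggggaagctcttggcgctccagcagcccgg
Slc12a5 downstream start: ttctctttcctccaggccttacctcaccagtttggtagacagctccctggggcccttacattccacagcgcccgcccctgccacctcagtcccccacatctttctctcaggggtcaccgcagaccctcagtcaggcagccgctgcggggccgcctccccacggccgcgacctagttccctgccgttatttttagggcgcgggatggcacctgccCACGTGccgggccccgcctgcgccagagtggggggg

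The window of the downstream start holds CACGTG, ending 30 bases before the window's end, and the window of the upstream start does not hold it. CACGTG reads the same on both strands and was found in 6.02% of 32851 windows of this length before RefSeq starts. Among the 10 windows that RefSeq has for 8 of the 9 genes, 1 window of Slc12a7 also holds it. Neither window of Slc12a5 holds the EGR element GCGTGGGCG on either strand, which 0.536% of all windows hold, or a p53 response element, which 0.0639% hold. The p53 element was searched on both strands as 1 full site, a pair of consensus motifs parted by a spacer of at most 13 bases. No mismatch was allowed, and bases outside the windows were not searched. Matches describe letters in a window and do not show binding, and the lack of a match does not show that a gene has no site. The windows are rich in G and C, at 61.2% for the upstream start and 67.2% for the downstream one, beside a median of 52.4% over all windows.

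Slc12a2 encodes NKCC1, the importer that works against KCC2. It had 69.9 and 68.9 CPM in the p53 activator libraries, against 62.8 and 65.1 CPM in the DMSO libraries. Both activator libraries were higher, by a margin that did not pass the test: the log2 fold change was 0.12 ± 0.08 (SE), with a limma adjusted p of 0.290. Its 95% interval, as a fold of CPM + 1, ran from 0.967 to 1.22. On the protein-coding scale the value was -0.03 (adjusted p = 0.839), so its sign depended on the scale.

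The ratio of importer to exporter was lower in both activator libraries, and the exact permutation test used for the ratios could not have called it. A ratio of CPM within a library does not depend on how the libraries are scaled. These are bulk libraries that also hold markers of glial cells, which use NKCC1, so the ratio is not that of neurons alone. The part of cell make-up in it was not tested. Slc12a2 stood at 0.275 and 0.244 of the CPM of Slc12a5 in the p53 activator libraries, against 0.323 and 0.308 in the DMSO libraries. Both activator libraries lay below both DMSO libraries. The mean log2 ratio was -1.95 ± 0.12 with the activator and -1.66 ± 0.05 in DMSO (SD, n = 2 each), a difference of -0.28, or 0.821-fold. An exact permutation test over libraries, two-sided, gave p = 0.333, the smallest that 2 libraries against 2 allow, and 0.444 after adjustment over the 4 ratios examined. That test cannot give a smaller p here, whatever the size of the difference, and no other test of the ratios was run.

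**Figure D2:**
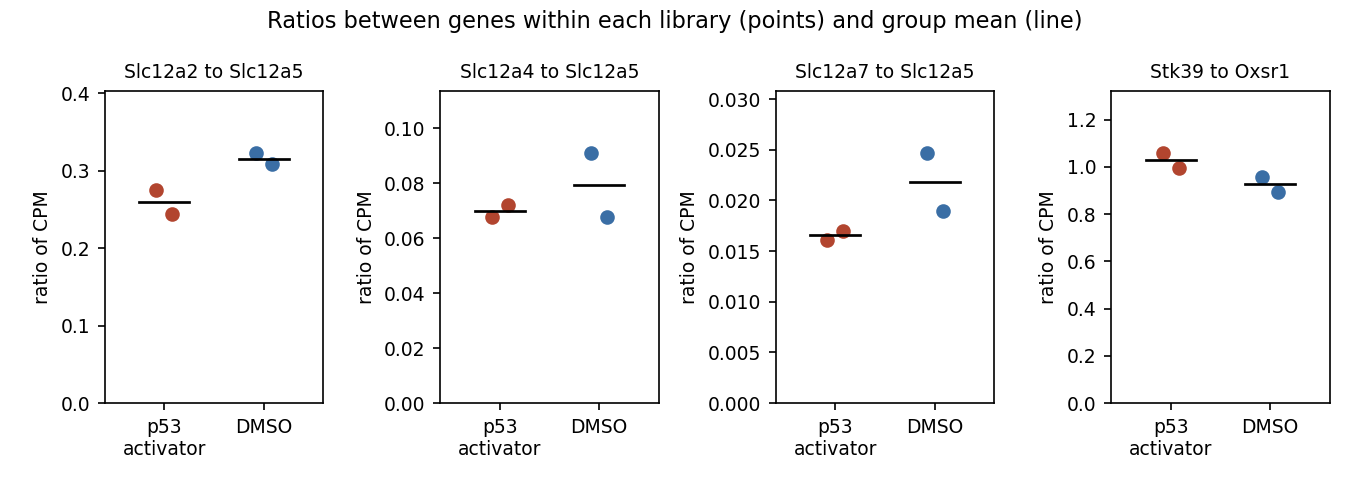
Ratio of CPM between genes within each library (y axis, from 0), with p53 activator libraries on the left and DMSO libraries on the right of each panel. Points are libraries and lines are means of 2. The ratio of Slc12a2 to Slc12a5 is 0.275 and 0.244 with the activator and 0.323 and 0.308 in DMSO, without overlap, while the ratio of Slc12a4 to Slc12a5 overlaps between the groups.

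Slc12a4 encodes KCC1, an exporter found in most cell types that serves cell volume. It had 17.2 and 20.3 CPM in the p53 activator libraries, against 17.7 and 14.3 CPM in the DMSO libraries, and the groups overlapped. Its log2 fold change was 0.22 ± 0.12 (SE), with a limma adjusted p of 0.167, and the interval of the fold ran from 0.982 to 1.38. A rise as large as that of Slc12a5 lies inside this interval. Leaving out 1 library at a time gave values from 0.07 without DMSO replicate 2 to 0.36 without DMSO replicate 1, with no call. The ratio of Slc12a4 to Slc12a5 was 0.0676 and 0.0719 with the activator, against 0.0909 and 0.0677 in DMSO (log2 difference -0.17, exact permutation p = 0.667 and adjusted p = 0.667 over the 4 ratios). Without DMSO replicate 1 the difference was 0.041, so its direction rested on that library. GENCODE vM21 places an antisense transcript, Gm16156, over 361 exon bases of Slc12a4. The authors' use of strand is not given in the sources used here, so reads of the pair cannot be told apart.

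Slc12a7 encodes KCC4, an exporter best known from kidney and inner ear, and it was the least expressed of the 9. It had 4.09 and 4.80 CPM with the p53 activator, against 4.80 and 4.01 CPM in DMSO. These values rest on 78 and 85 reads with the activator and on 70 and 60 reads in DMSO, and the groups overlapped. The log2 fold change was 0.01 ± 0.18 (SE), with a limma adjusted p of 0.967. Its fold interval, from 0.786 to 1.29, was the widest of the 9 genes, so the depth allows both a moderate fall and a moderate rise. Relative to Slc12a5 it stood at 0.0161 and 0.0170 in the activator libraries, against 0.0247 and 0.0190 in the DMSO libraries (log2 difference -0.39, exact permutation p = 0.333, adjusted p = 0.444 over the 4 ratios). The difference was -0.20 without DMSO replicate 1 and -0.58 without DMSO replicate 2.

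Wnk1 is the broadly expressed member of the WNK kinases. It had 194 and 205 CPM in the p53 activator libraries, against 201 and 197 CPM in the DMSO libraries. The groups overlapped and the means differed by less than the spread within either group. The log2 fold change was 0.00 ± 0.08 (SE), with a limma adjusted p of 0.974 and a fold interval from 0.902 to 1.11. A change as large as that of Slc12a5 lies outside this interval on the deposited scale. On the protein-coding scale the value was -0.15, still with no call (adjusted p = 0.134).

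Wnk2 is a WNK kinase enriched in brain. It had 101 and 102 CPM with the p53 activator, against 114 and 106 CPM in DMSO. Both activator libraries lay below both DMSO libraries, but the log2 fold change of -0.11 ± 0.08 (SE) did not pass the test (limma adjusted p = 0.276). Wnk2 fell on the protein-coding scale (log2 fold change -0.26, limma adjusted p = 0.00729). In edgeR it had a value of -0.15 and no call (adjusted p = 0.180).

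Wnk3 is a WNK kinase expressed in neurons. It stood at 112 and 101 CPM with the activator, against 97.6 and 97.3 CPM in DMSO, so the activator libraries were the higher ones, with replicate 2 only just above. The log2 fold change was 0.13 ± 0.08 (SE), with a limma adjusted p of 0.224, and it was -0.02 (adjusted p = 0.871) on the protein-coding scale. An opposite-strand transcript, A230072E10Rik, shares 523 exon bases with Wnk3 in GENCODE vM21. It was listed at 1.26 and 0.903 CPM with the activator, against 1.10 and 0.802 CPM in DMSO.

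The sum of the WNK kinases did not separate the groups. Levels of different genes were compared per length, as CPM per kilobase of annotated exon (GENCODE vM21, all exons of a gene merged). The summed level of Wnk1, Wnk2, Wnk3 and Wnk4 was 31.2 and 30.8 CPM per kilobase of exon with the activator, against 31.7 and 30.6 in DMSO. Wnk2 made up 38.2% and 39.0% of that sum in the activator libraries, against 42.4% and 40.8% in the DMSO libraries. Wnk3 made up 33.8% and 31.0% with the activator, against 29.1% and 30.0% in DMSO. Wnk1 held 27.2% and 29.2% with the activator and 27.8% and 28.2% in DMSO. Both activator libraries therefore had a smaller share of Wnk2 and a larger share of Wnk3 than either DMSO library, and the groups overlapped for Wnk1. The size of each share depends on the merged exon length, which was 22825 bases for Wnk1, 8481 for Wnk2 and 10589 for Wnk3. In CPM, without that division, Wnk1 was the highest of the WNK kinases in every library.

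Stk39 encodes SPAK, which WNK kinases activate and which phosphorylates NKCC1 and the KCC exporters. It had 46.1 and 46.5 CPM in the p53 activator libraries, against 46.7 and 42.3 CPM in the DMSO libraries. The groups overlapped, and the log2 fold change was 0.06 ± 0.09 (SE; limma adjusted p = 0.657). On the protein-coding scale it was -0.09 (adjusted p = 0.541).

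Oxsr1 encodes OSR1, the close relative of SPAK with the same substrates. It stood at 43.5 and 46.6 CPM in the activator libraries, against 48.8 and 47.3 CPM in the DMSO libraries. Both activator libraries were lower, and the log2 fold change of -0.09 ± 0.09 (SE) did not pass the test (limma adjusted p = 0.466). Oxsr1 fell on the protein-coding scale (log2 fold change -0.24), with a limma adjusted p of 0.0460, just under the threshold.

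The ratio of Stk39 to Oxsr1 was higher in both activator libraries, and the exact permutation test could again not have called it. Stk39 had 1.06 and 0.998 times the CPM of Oxsr1 in the p53 activator libraries, against 0.958 and 0.894 times in the DMSO libraries. The groups did not overlap, and the log2 difference was 0.15 (exact permutation p = 0.333, the smallest possible, and adjusted p = 0.444 over the 4 ratios).

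**Figure D3:**
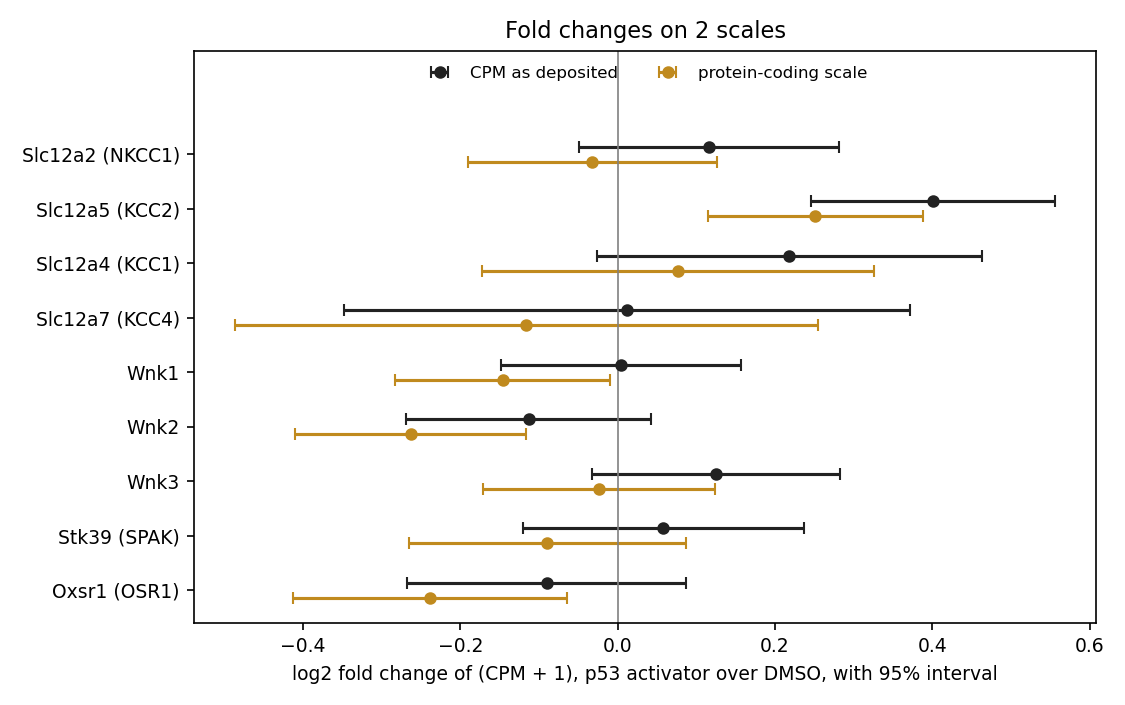
Log2 fold change of CPM + 1, p53 activator over DMSO (x axis), of each of the 9 genes with limma's 95% interval, as deposited (black) and on the protein-coding scale (ochre). Slc12a5 lies above 0 on both scales (0.40 and 0.25), Wnk2 and Oxsr1 are called lower on the second scale alone (-0.26 and -0.24), and the interval of Slc12a7 is the widest.

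Per kilobase of exon, Slc12a5 was the highest of the 9 genes in every library. It had 34.1 and 38.0 CPM per kilobase with the p53 activator, against 26.1 and 28.3 in DMSO. Wnk2 came next, at 11.9 and 12.04 with the activator and 13.5 and 12.5 in DMSO, followed by Wnk3 at 10.6 and 9.57 with the activator and 9.22 and 9.19 in DMSO. Stk39, Oxsr1 and Wnk1 lay close together, between 8.14 and 9.42 CPM per kilobase over all libraries, and their order was not resolved beyond the spread. Wnk3 overlapped with Stk39 at the upper end of that range. Slc12a2 lay below them, at 6.40 and 6.31 with the activator and 5.75 and 5.96 in DMSO. Slc12a4 followed at 4.01 and 4.75 with the activator and 4.13 and 3.34 in DMSO, and Slc12a7 stood lowest at 0.323 and 0.379 with the activator and 0.379 and 0.316 in DMSO. The exon lengths come from an annotation that may differ from the authors', so these levels are approximate. Wnk1 had the longest merged exons of the 9 genes, at 22825 bases, and its place below Wnk2 and Wnk3 depends on that length. In CPM it stood above both in every library.

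The gene with the profile nearest to that of Slc12a5 over the 4 libraries was Glg1, a Golgi glycoprotein, at a Euclidean distance of 0.01 between centred log2(CPM + 1) values. Megf9 and Igsf3 followed at 0.02 each. With 4 libraries such likeness is common, and 256 of the 9705 genes compared lay within a distance of 0.1.

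Slc12a5 rose beside 4 of 6 neuron markers, while 1 of the 6 fell. Of nuclear protein-coding genes, 21.2% were called higher and 7.19% lower. The median log2 fold change of the 6 markers was 0.41. Their summed level was 7485 and 7614 CPM with the p53 activator, against 6437 and 7181 CPM in DMSO. Map2, the most abundant of them, had 3583 CPM with the activator and 3863 CPM in DMSO on average. It had no call (log2 fold change -0.11, limma adjusted p = 0.581). The nuclear splicing factor Rbfox3 was the marker that fell (-0.27, limma adjusted p = 0.00468), a call lost without DMSO replicate 1 or p53 activator replicate 2, and the vesicle protein Snap25 rose by 0.38 on the log2 scale. Of 6 astrocyte markers 0 were called in limma (1 at an unadjusted p under 0.05), edgeR or DESeq2, and their summed level was 1160 and 1128 CPM with the activator, against 1068 and 1031 CPM in DMSO. Of 6 listed oligodendrocyte lineage markers 0 were called in limma (3 at an unadjusted p under 0.05), edgeR or DESeq2, at a sum of 190 and 187 CPM with the activator and 171 and 165 CPM in DMSO. Markers of glial cells, which also use NKCC1 and KCC1, were thus found in both groups. Microglia markers summed to at most 4.53 CPM in any library. In bulk RNA a change in the number of cells of a type and a change in RNA per cell cannot be told apart, and the part of cell make-up in the rise of Slc12a5 was not tested.

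Slc12a9, another gene of the SLC12 family, had 16.7 CPM with the activator and 17.0 CPM in DMSO on average, with no call (log2 fold change -0.02, limma adjusted p = 0.904). Wnk4, a WNK kinase best known from kidney, had 1.03 CPM with the activator and 1.08 CPM in DMSO, also with no call (-0.03, adjusted p = 0.934). Slc12a8 lay under the filter, and the kidney cotransporters Slc12a1 and Slc12a3 were not found by symbol among the listed genes.

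Genes that act on WNK kinases and on SPAK and OSR1 gave 4 rises and 0 falls among 10 tested, with a median log2 fold change of 0.21. Of all nuclear protein-coding genes tested, 21.2% were called higher and 7.19% lower. Cul3, the scaffold of the ubiquitin ligase that removes WNK kinases, had 179 CPM with the activator and 150 CPM in DMSO on average (log2 fold change 0.25, limma adjusted p = 0.00669). Klhl2, a substrate adaptor of that ligase, rose by 0.23, while Klhl3, another adaptor, had 0.14 with no call (limma adjusted p = 0.189). Cab39, the scaffold protein that binds and activates SPAK and OSR1, rose by 0.24, while its relative Cab39l had 0.28 with no call (limma adjusted p = 0.0974). Stk25, a kinase that Cab39 also binds, rose by 0.34. Nedd4l, a ubiquitin ligase of ion transporters, was the most abundant with no call (0.07, adjusted p = 0.511). These counts followed the scale, since 0 of the list rose and 1 fell on the protein-coding scale, and 2 rose in edgeR. Klhl2 and Cab39 lost their calls in edgeR (adjusted p = 0.0785 and 0.0652) and in DESeq2 (adjusted p = 0.120 and 0.0620). Both calls were also lost with TMM factors. The count of rises was 2 without DMSO replicate 1 or DMSO replicate 2 and 1 without p53 activator replicate 1. The calls of Klhl2 (without DMSO replicate 2 or either activator library), Cab39 (without either DMSO library or p53 activator replicate 1) and Cul3 (without DMSO replicate 1 or p53 activator replicate 1) were lost, and that of Stk25 held each time.

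Chloride also crosses membranes through channels and exchangers. Of 18 chloride channel and exchanger genes tested, 11 rose and 0 fell, beside 21.2% and 7.19% of nuclear protein-coding genes. The median log2 fold change of the list was 0.22. Clcn4, an endosomal exchanger of chloride and protons, had 290 CPM with the activator and 220 CPM in DMSO on average (log2 fold change 0.40, limma adjusted p = 3.13e-05), and Lrrc8b, a subunit of the volume-regulated anion channel, rose by 0.31. Clcn2, a plasma membrane channel that lets chloride leave neurons, had a value of -0.18 with no call (adjusted p = 0.233). Clcn6 was the most abundant with no call (0.16, adjusted p = 0.117). Without DMSO replicate 1 the count of rises was 1 and the call of Lrrc8b was lost (adjusted p = 0.0688), without p53 activator replicate 1 the count was 7 and without p53 activator replicate 2 it was 3. In edgeR 5 rose, and on the protein-coding scale 1 rose and 2 fell.

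Transporters that couple chloride to bicarbonate, with the carbonic anhydrases, gave 3 rises and 0 falls among 15 tested. Rises were no more frequent here than among nuclear protein-coding genes, of which 21.2% were called higher and 7.19% lower. Slc4a8, which takes up bicarbonate with sodium in exchange for chloride, rose by 0.30 on the log2 scale (limma adjusted p = 0.00139), and the anion exchanger Slc4a3 by 0.25 (adjusted p = 0.0111). The bicarbonate cotransporter Slc4a4 was the most abundant with no call (0.15, adjusted p = 0.128). Without DMSO replicate 1 the count of rises was 0 and without p53 activator replicate 2 it was 1, with the calls of Slc4a8 and Slc4a3 lost in both cases, and it was 0 on the protein-coding scale. The call of Slc4a3 was also lost in edgeR (adjusted p = 0.0857) and DESeq2 (adjusted p = 0.135).

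Of 18 tested partners and regulators of KCC2, 2 rose and 0 fell, with a median log2 fold change of 0.14. Among nuclear protein-coding genes 21.2% were called higher and 7.19% lower, so rises were no more frequent in this list. Ppp1ca, a catalytic subunit of protein phosphatase 1, rose by 0.35 (limma adjusted p = 0.000426). Egr4, a transcription factor known to act on the Slc12a5 promoter, had 6.95 CPM with the activator and 4.84 CPM in DMSO on average (0.43, adjusted p = 0.0487). The call of Egr4 was lost in edgeR (adjusted p = 0.0811), in DESeq2 (adjusted p = 0.219), on the protein-coding scale, with TMM factors, with no filter and with a pseudocount of 0.1. It was also lost without DMSO replicate 1, DMSO replicate 2 or p53 activator replicate 2. The value of Egr4 was 0.18 without p53 activator replicate 2 and 0.67 without p53 activator replicate 1. Without DMSO replicate 1 the list had 1 rise, and on the protein-coding scale 0 rose and 1 fell. Ntrk2, the receptor of BDNF, was the most abundant with no call (0.16, adjusted p = 0.150), and Neto2, which binds KCC2, had 0.16 with no call (adjusted p = 0.115).

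Receptors through which chloride flows gave 7 rises and 1 fall among 16 tested, with a median log2 fold change of 0.21. The shares of nuclear protein-coding genes called were 21.2% higher and 7.19% lower. The GABA-A subunits Gabra4 and Gabra3 rose by 0.33 and 0.32 on the log2 scale, and Gabra2 was the most abundant with no call (0.14, adjusted p = 0.194). Glra4, a glycine receptor subunit, was the gene that fell, with 1.14 CPM with the activator and 2.58 CPM in DMSO on average (-0.74, limma adjusted p = 0.00325). Its level was near the filter, at 25 and 17 reads with the activator and 43 and 33 reads in DMSO. With a minimum of 5 CPM the list had 0 falls. Without DMSO replicate 1 the rises and falls were 1 and 0, without p53 activator replicate 1 they were 2 and 1 and without p53 activator replicate 2 they were 3 and 1. The calls of Gabra3 and Glra4 were lost without DMSO replicate 1, and that of Gabra4 without p53 activator replicate 1. In edgeR 2 rose and 1 fell, in DESeq2 4 rose and 0 fell (adjusted p = 0.0648 for Glra4), and on the protein-coding scale 0 rose and 1 fell. In limma without a trend of the spread, the call of Glra4 held, and those of the other called genes named from these lists and from the neuron markers were lost, at adjusted p from 0.0652 for Clcn4 to 0.181 for Slc4a3.

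**Figure D4:**
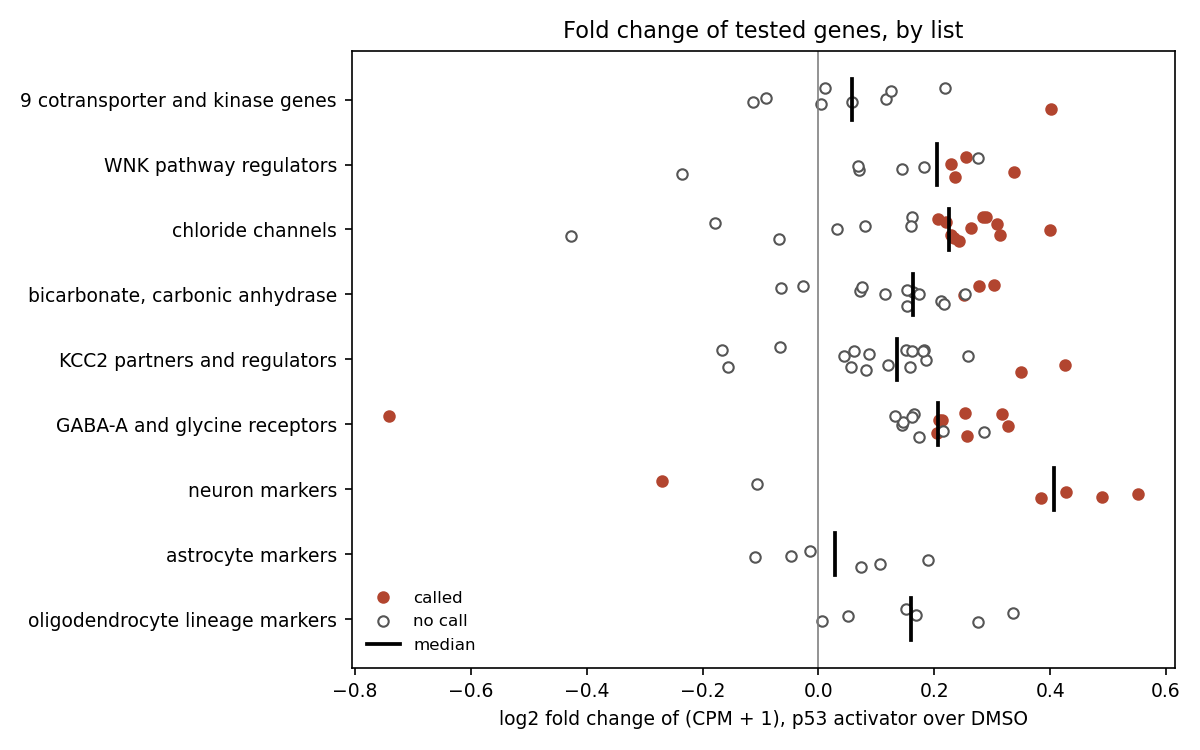
Log2 fold change of CPM + 1, p53 activator over DMSO (x axis), of the tested genes, by list (rows). Filled points are genes called by limma, open points are genes with no call and black bars are medians. Of the 9 cotransporter and kinase genes, at the top, only Slc12a5 (0.40) is filled, and their median of 0.06 lies left of the medians of the chloride channels (0.22) and of the neuron markers (0.41).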

How the data were processed

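Ribosome-depleted total RNA of cultured neurons was sequenced, per the labels' protocols, and the authors deposited 1 table of CPM. The unit was read from the values, since no header names it. Whole reads came back for 100% of values, within 0.01 reads. The submitters' processing notes name TopHat2, Cufflinks 2.0.0 and mm9, without saying what each did. Which program counted the reads, and whether by strand, is not given in the sources used here.

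The filter kept genes that reached 1 CPM in 2 or more libraries. Limma 3.58.1 in R 4.3.3 was fitted with a trend of the spread on log2(CPM + 1). The added 1 understates fold changes of low genes. The fit had 2 residual and 98.0 prior degrees of freedom, so each call rests mostly on the spread pooled over genes. It was tested on simulated data. edgeR 4.0.16 and DESeq2 1.42.0 on whole reads were alternatives. Gene classes and exon lengths came from GENCODE vM21, whose build differs from mm9, and promoter sequences from RefSeq. Intervals are limma's, at 95%. Replicates differed by more than sampling noise (chi-square per degree of freedom 5.16 for the p53 activator and 4.52 for DMSO).

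The 9 genes and the other lists were chosen with earlier results of these data known. Named from each other list were the 2 called genes with the smallest p in each direction and the most abundant gene with no call. Some genes of these lists are not reported here. Klhl2, Klhl3, Cab39, Cab39l, Clcn2, Neto2, Rbfox3 and Snap25 were added after their values were seen.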

Additional observations from a re-analysis of the deposited data

How the results depend on the processing

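Of the 13 alternatives, 12 kept the call of Slc12a5, and the log2 fold change ranged from 0.25 to 0.48. Without trend, 0 of the 9 genes and 302 of all genes were called higher, while 1973 of all genes were called lower. On the protein-coding scale, 2 of the 9 (Wnk2 and Oxsr1) were called lower, and 570 of all genes were called higher and 1707 lower. With edgeR 1869 were called higher, with DESeq2 1307 higher and 1506 lower, and with a minimum of 5 CPM 1776 lower. Leaving out 1 library at a time gave 1140 to 2119 higher and 1367 to 2543 lower. It left 1 of the 9 genes called higher and 0 lower each time, with Slc12a5 between 0.32 and 0.48. The log2 difference of Slc12a4 to Slc12a5 ranged from -0.38 to 0.041, reversing without DMSO replicate 1.

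The replicate numbers pair nothing that the labels state, and same-numbered libraries had a correlation of 0.12 between their deviations. With the replicate block 3705 genes were called higher and 3132 lower, of the 9 genes still 1 and 0. Slc12a7, with 60 to 85 reads per library, lay under the minimum of 5 CPM and has no value there. With 2 libraries a group, outlying libraries could not be tested.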
